A study of Rattus norvegicus with 35 samples.

Results

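The comparison described here sets the hippocampus of ovariectomized rats given exemestane against that of ovariectomized rats given anastrozole, the 2 aromatase inhibitors of the study. Its members are the 10 libraries whose treatment label names either drug, 5 for each, of 35 libraries in all. They were taken by that label and not by any measured value. The animals were female Sprague Dawley rats, ovariectomized at 6 months of age and left for 2 weeks before treatment. Exemestane was injected into the abdominal cavity once a day at 0.16 mg/kg and anastrozole at 4.03 mg/kg, and tissue was collected 7 days after treatment began. The 5 vehicle libraries, used below as a reference level, came from ovariectomized rats without either drug. All 3 groups therefore lacked ovaries. The other groups of 5 were sham-operated rats and ovariectomized rats given estradiol, tamoxifen or raloxifene, and they entered the models for the spread between libraries. In the model with the library class described below, only tamoxifen among these other groups held both classes and also informed the size of the class difference.

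Aromatase, the enzyme encoded by Cyp19a1, converts testosterone and androstenedione into estradiol and estrone. After ovariectomy the remaining estrogen is made in other tissues, among them fat and the brain, and hippocampal neurons are a known site of aromatase. Exemestane is a steroid related to androstenedione that inactivates the enzyme irreversibly, whereas anastrozole is a nonsteroidal triazole that binds the heme iron of the enzyme reversibly. Both are used against breast cancer after menopause. The comparison asks whether the steroidal and the nonsteroidal inhibitor left different RNA levels in the hippocampus. The labelled dose of anastrozole was 25.2 times that of exemestane, so the drug and its dose cannot be told apart. In clinical use exemestane is the drug with the larger daily dose, and the exemestane dose in the labels equals that of estradiol. Whether the labelled doses were exchanged was not tested.

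The deposited estimated counts summed to between 6964580 and 12093294 per library in the 10 libraries, over 15059 listed genes. Libraries differed in the share of counts taken by Rn7sl1, the RNA part of the particle that directs secretory proteins to the endoplasmic reticulum. Over all 35 libraries this share left a gap between 3.84% and 4.47%, with 15 libraries below it and 20 above. The exemestane libraries held 3.84%, 3.58%, 3.67%, 3.51% and 5.81% in replicate order. The anastrozole libraries held 6.49%, 5.60%, 3.82%, 2.90% and 5.06%. Exemestane thus had 4 low-share libraries and 1 high-share library (replicate 5), and anastrozole had 2 low-share libraries (replicates 3 and 4) and 3 high-share libraries. This imbalance gave p = 0.524 in a 2-sided Fisher's exact test, which has little power at 5 against 5. Vehicle had 1 low-share library and 4 high-share libraries. All sham and estradiol libraries were high-share, all raloxifene libraries were low-share, and tamoxifen held both. With group and class fitted together, edgeR's quasi-likelihood test called 3677 genes higher and 3796 lower in low-share libraries. Only groups that held both classes inform this class difference. The first principal component of the 10 libraries, with 32.6% of their variance, placed the low-share libraries on the negative side and the high-share libraries on the positive side. Folds between the drugs are therefore given from a model without the class and from a model with it. The class was set from a measured RNA and was unevenly spread over the treatment groups of the series. Its relation to treatment, tissue or library preparation was not tested.

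**Figure D1:**
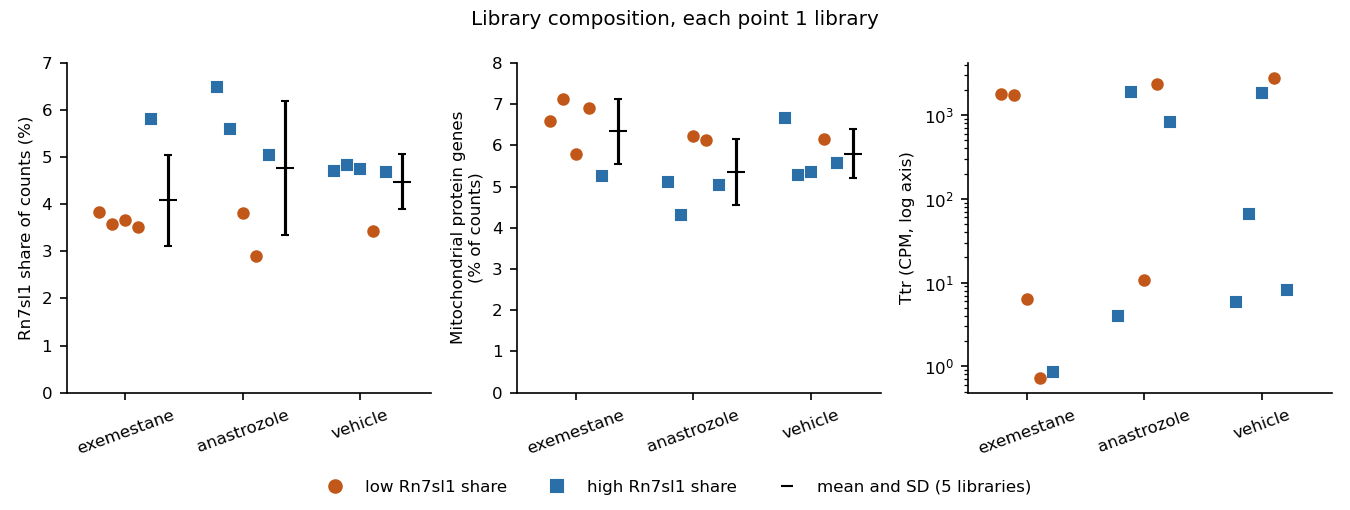
Share of counts taken by Rn7sl1 (left, percent), share taken by the mitochondrially encoded protein genes (middle, percent) and Ttr level (right, CPM, log axis) in the exemestane, anastrozole and vehicle groups. Each point is 1 library, circles are low-share and squares high-share libraries, and bars in the left and middle panels are means with SD (n = 5). The 4 low-share exemestane libraries lie between 3.51% and 3.84% Rn7sl1, and replicate 5 lies at 5.81%.

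A second difference between libraries was Ttr, encoding the thyroid hormone carrier transthyretin, the most abundant choroid plexus transcript. Ttr stood at 1790, 1720, 6.35, 0.734 and 0.862 CPM (counts scaled to a common library size) in the exemestane libraries. It stood at 4.03, 1896, 10.9, 2314 and 832 CPM in the anastrozole libraries. High and low values occurred in both drug groups and in both Rn7sl1 classes. Nothing in the labels says more of the replicates than that they are separate samples, so the p-values below measure the spread between these libraries. In bulk tissue, fewer cells of a type and less RNA per cell cannot be told apart.

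Without the class, edgeR's quasi-likelihood test called 0 of 14411 genes (0.0%) between the drugs at a Benjamini-Hochberg adjusted p under 0.05. The smallest adjusted p by edgeR was 0.0519, for Zkscan7. Adjusted p-values of this kind can tie. Zbtb20 and Enpp6, with unadjusted edgeR p of 3.64e-05 and 0.00298, both had 0.0901, so that value does not rank the genes that share it. At an unadjusted p under 0.05 there were 3900 genes (27.1%), of which 2019 stood higher under exemestane (14%) and 1881 lower (13.1%). DESeq2 on the same model called 844 genes, 487 higher and 357 lower under exemestane. The median absolute log2 fold change over all genes was 0.17, against a median standard error (SE) of 0.13. The libraries of 194 genes (1.35%) did not overlap between the drugs, 99 with exemestane above (0.687%) and 95 with exemestane below (0.659%).

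With the class in the model, 4 genes (0.0278%) passed the edgeR test, 3 higher (0.0208%) and 1 lower (0.00694%) under exemestane. At an unadjusted p under 0.05 there were 1848 genes (12.8%), 1040 higher (7.22%) and 808 lower (5.61%). DESeq2 called 160 genes with the class, and these included the 4 that edgeR called. The median absolute log2 fold change was 0.10 with the class. Among genes with an unadjusted p under 0.05 in the model without the class, the fold with the class was 0.549 times the fold without it at the median. In both models 1759 genes had an unadjusted p under 0.05 with the same sign, and 0 had opposite signs. Between the 4 exemestane and 2 anastrozole low-share libraries alone, 2851 genes (19.8%) did not overlap, a count that so few libraries inflate.

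**Figure D2:**
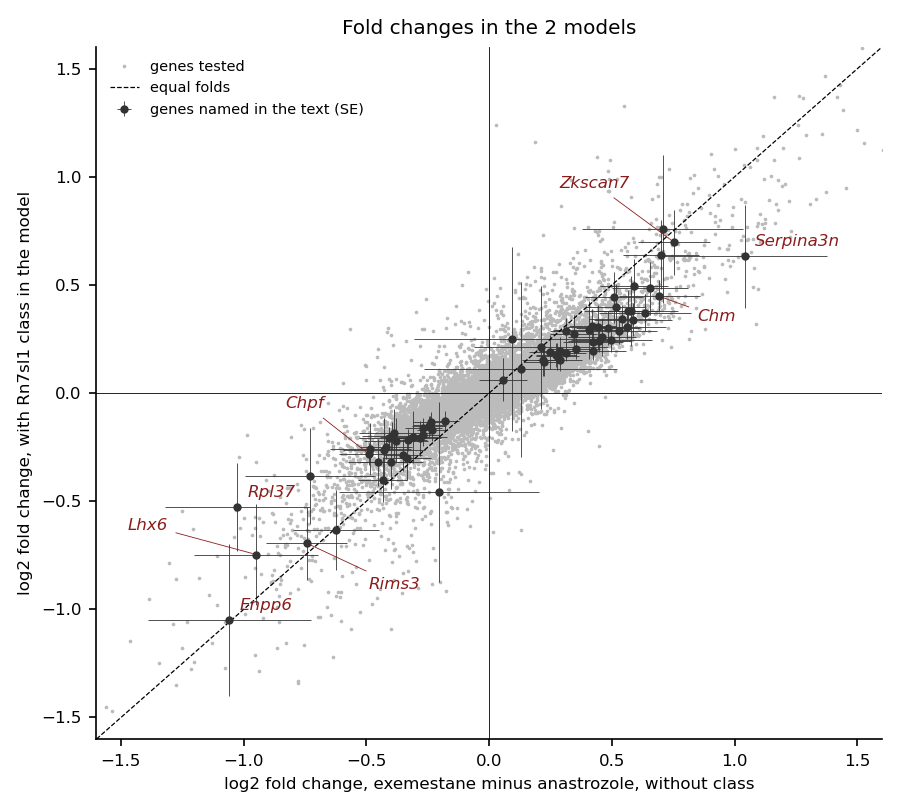
log2 fold change of exemestane minus anastrozole without the class (x axis) and with it (y axis), both unitless, with 1 grey point for each gene tested within the axes. The axes stop at 1.6 in either direction, and 46 genes lie outside them and are not shown. Dark points with SE bars are the genes named in the text and the dashed line marks equal folds, and Zkscan7, Rims3 and Enpp6 lie near that line while Chm and Chpf lie closer to 0 with the class than without it.

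Single libraries decided how many genes were called. Without the class, the edgeR count was 3454 without exemestane replicate 5, 2689 without anastrozole replicate 4 and 1541 without anastrozole replicate 3. These are the high-share library of the exemestane group and the low-share libraries of the anastrozole group. The count was 4 without exemestane replicate 1 and 0 without each of the other 6 libraries. With the class, the count was 22 without exemestane replicate 1, 1 without exemestane replicate 3 or 4 or anastrozole replicate 1 or 2, 0 without anastrozole replicate 3 and 2 without anastrozole replicate 4. It was 5 without exemestane replicate 2 or anastrozole replicate 5, and 4 without exemestane replicate 5, of which 1 was among the 4 called with all libraries.

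Chm was the gene with the smallest p in the model with the class. It encodes Rab escort protein 1, which presents Rab GTPases for the attachment of their lipid anchors and is lost in the retinal disease choroideremia. Chm stood at 49.1, 55.2, 50, 53.9 and 33.2 CPM in the exemestane libraries and at 23.9, 23.8, 33.9, 45.4 and 21.7 CPM in the anastrozole libraries. The high-share exemestane library fell inside the anastrozole range, and within each Rn7sl1 class the exemestane libraries, a single one in the high-share class, were above all anastrozole libraries. The log2 fold change was 0.69 ± 0.17 (SE) without the class (edgeR, Benjamini-Hochberg adjusted p = 0.0901) and 0.45 ± 0.073 with it (edgeR adjusted p = 0.00772). Chm also differed between low-share and high-share libraries in the model with the class, by 0.69 on the log2 scale. Leaving out each of the 10 libraries in turn, Chm passed with the class in 9 fits and lost its call without anastrozole replicate 3, where the edgeR adjusted p was 0.0996.

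Ccdc88a encodes girdin, an actin-binding Akt substrate that acts in cell migration and in the positioning of newborn neurons. Its level was 178, 172, 191, 194 and 115 CPM with exemestane and 92.4, 91.0, 147, 148 and 96.9 CPM with anastrozole. Only exemestane replicate 5 overlapped the anastrozole libraries, and within each class the exemestane libraries stood above. The log2 fold change was 0.56 ± 0.16 (SE) without the class (edgeR adjusted p = 0.0901) and 0.31 ± 0.059 with it (edgeR adjusted p = 0.0264). This call held without exemestane replicate 1 or 2 or anastrozole replicate 5 and was lost without each of the other 7 libraries, where the edgeR adjusted p ran up to 0.162 and the fold from 0.29 to 0.31.

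Chpf was the gene called lower under exemestane. Its product, chondroitin polymerizing factor, extends the chondroitin sulfate chains of the extracellular matrix. The exemestane libraries stood at 66.9, 74.0, 68.4, 68.2 and 98.0 CPM and the anastrozole libraries at 122, 122, 84.9, 80.2 and 118 CPM. Exemestane replicate 5 was again the library inside the range of the other drug. The log2 fold change was -0.49 ± 0.12 (SE) without the class and -0.28 ± 0.052 with it (edgeR adjusted p = 0.0241). Its call held without exemestane replicate 1 or 2 or anastrozole replicate 4 or 5 and was lost without each of the other 6 libraries, where the edgeR adjusted p ran up to 0.111. It was also lost with the authors' per-gene factors, at -0.21 and an edgeR adjusted p of 0.138.

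The fourth called entry, UNKNOWN_ENSRNOG00000062127, has an Ensembl identifier but no symbol in the deposited table, and the reference used here does not name it. It was among the most abundant entries, at 8920, 9250, 9900, 9220 and 6700 CPM with exemestane and 5070, 4570, 7960, 7530 and 5080 CPM with anastrozole. Its log2 fold change was 0.54 ± 0.14 (SE) without the class and 0.34 ± 0.064 with it (edgeR adjusted p = 0.0241), and the call held without exemestane replicate 1 or 2 or anastrozole replicate 5 and was lost without each of the other 7. This entry was named after its values were seen.

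Without the class, Chm differed from vehicle by 0.68 ± 0.17 (SE, log2) with exemestane and by -0.012 ± 0.17 with anastrozole. Ccdc88a differed by 0.52 ± 0.16 and -0.038 ± 0.16, and Chpf by -0.38 ± 0.12 and 0.11 ± 0.12, in the same order, so that anastrozole lay within about 1 SE of vehicle and exemestane did not. With the class in the model, Chm differed from vehicle by 0.26 ± 0.079 (SE, log2) with exemestane and by -0.19 ± 0.073 with anastrozole. Ccdc88a stood at 0.10 ± 0.063 and -0.20 ± 0.057, and Chpf at -0.083 ± 0.055 and 0.20 ± 0.049, for exemestane and anastrozole in that order. With the class the 2 estimates of each gene thus had opposite signs, and where vehicle lay relative to the drugs depended on the model. Both differences use the same 5 vehicle libraries, 1 of them low-share, and were not counted as separate evidence.

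Chm and Ccdc88a stood higher and Chpf lower under exemestane. Low-share minus high-share, Chm, Ccdc88a and Chpf differed by 0.69, 0.68 and -0.50 (log2) in the model with the class. The 250 bases upstream of these 3 named genes are shown because the genes were called in the same model. The bases are given 5′ to 3′ on the gene's strand from RefSeq (GRCr8). The windows lie at chrX:82554197-82554446 (minus strand) for Chm, chr14:107305148-107305397 (plus strand) for Ccdc88a and chr9:84416524-84416773 (minus strand) for Chpf. Capitals mark matches to the motifs searched on both strands.

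Chm: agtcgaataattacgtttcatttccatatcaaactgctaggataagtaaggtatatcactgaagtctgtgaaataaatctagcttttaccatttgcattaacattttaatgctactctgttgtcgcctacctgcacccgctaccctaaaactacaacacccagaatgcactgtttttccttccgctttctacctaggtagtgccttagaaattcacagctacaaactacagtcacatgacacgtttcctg
Ccdc88a: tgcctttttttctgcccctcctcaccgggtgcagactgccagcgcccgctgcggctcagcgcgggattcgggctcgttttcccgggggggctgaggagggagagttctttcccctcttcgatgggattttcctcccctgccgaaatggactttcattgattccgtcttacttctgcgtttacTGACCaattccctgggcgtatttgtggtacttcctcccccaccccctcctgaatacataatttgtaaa
Chpf: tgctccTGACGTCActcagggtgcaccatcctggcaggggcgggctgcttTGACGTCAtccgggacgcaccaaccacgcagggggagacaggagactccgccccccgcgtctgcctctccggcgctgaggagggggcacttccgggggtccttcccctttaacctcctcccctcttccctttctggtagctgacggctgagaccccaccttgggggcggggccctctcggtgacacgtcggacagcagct

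The motifs were the palindromic estrogen response element GGTCANNNTGACC, its single arm TGACC and the cyclic AMP response element TGACGTCA. The palindrome occurred in none of the 3 windows and in 0.0239% of 33465 rat promoters of the same length. Chm held no match to any of them. Ccdc88a held 1 such arm, 68 to 64 bases before the start, a motif found in 35.4% of promoters. Chpf held 2 copies of TGACGTCA, 244 to 237 and 200 to 193 bases before the start. One or more copies occurred in 1.59% of promoters and 2 or more in 10 promoters (0.0299%). The copies in Chpf overlap no other match. A match describes the letters in the window and no binding was measured.

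**Figure D3:**
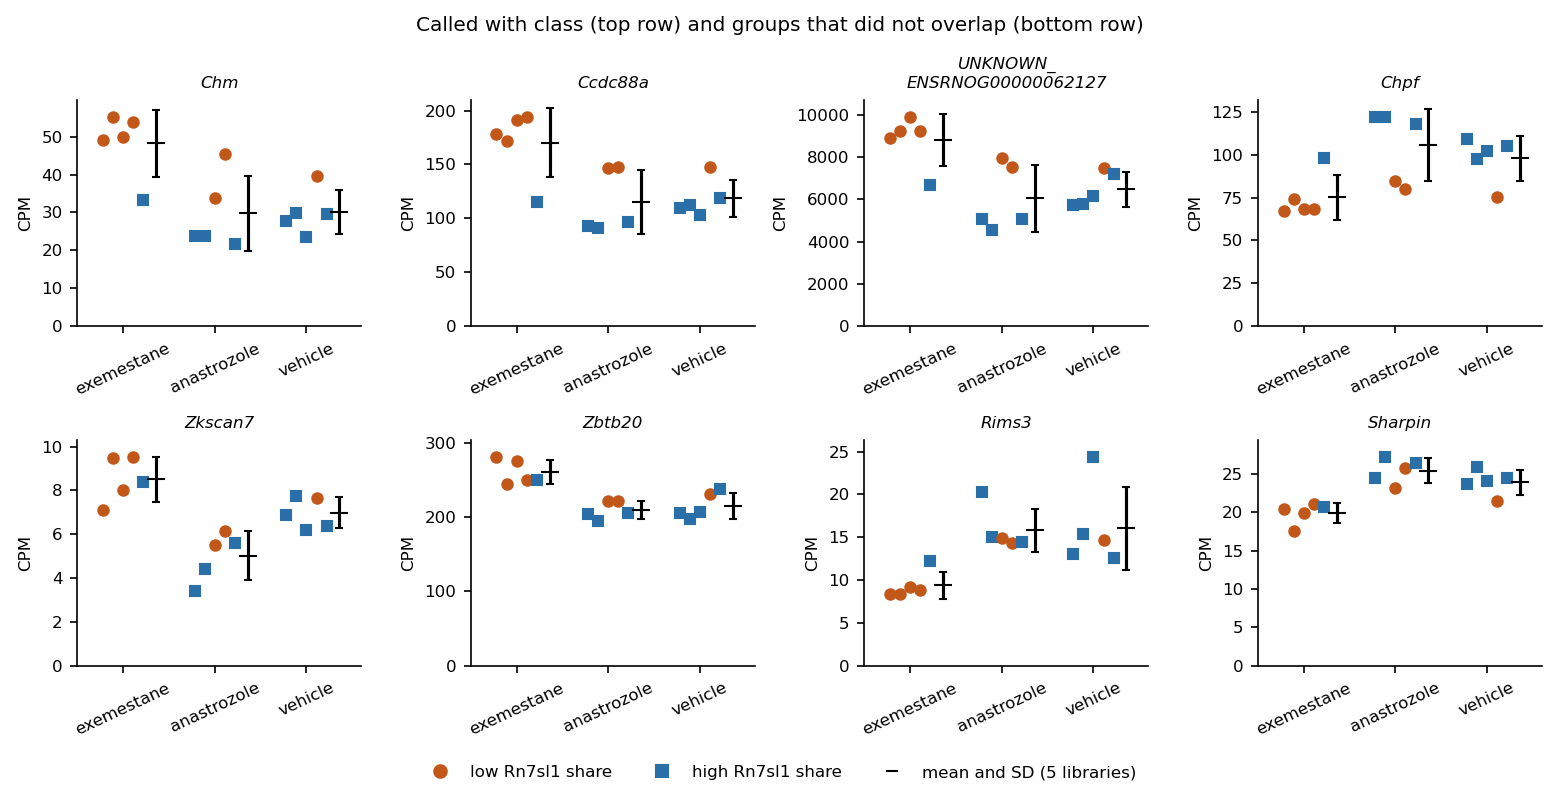
CPM of 8 entries in the exemestane, anastrozole and vehicle groups, with 1 point for each library (circles low-share, squares high-share) and bars for mean and SD (n = 5). In the upper panels, the 4 entries called with the class, the high-share exemestane library lies apart from the other 4 of its group, and in the lower panels the exemestane and anastrozole libraries do not overlap.

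Among genes whose libraries did not overlap between the drugs, several had nearly the same fold in both models. Zkscan7, encoding a zinc finger protein with KRAB and SCAN domains, stood at 7.12, 9.48, 8.02, 9.54 and 8.37 CPM with exemestane and at 3.4, 4.44, 5.53, 6.15 and 5.62 CPM with anastrozole. The lowest exemestane library was above the highest anastrozole library, and exemestane replicate 5 lay amid its group. The log2 fold change was 0.75 ± 0.15 (SE) without the class (edgeR adjusted p = 0.0519) and 0.70 ± 0.15 with it (edgeR adjusted p = 0.0574), past the threshold in neither. The mean vehicle level, 6.98 ± 0.709 CPM (SD, n = 5), lay between the drugs.

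Zbtb20, a zinc finger repressor needed for the identity of CA1 pyramidal neurons, stood at 281, 245, 275, 250 and 250 CPM with exemestane and 204, 194, 221, 222 and 205 CPM with anastrozole. All exemestane libraries were above all anastrozole libraries. Exemestane minus anastrozole, the log2 fold change was 0.31 ± 0.066 (SE) without the class and 0.29 ± 0.063 with it, with edgeR adjusted p-values of 0.0901 and 0.0574. Zkscan2, another zinc finger protein of the KRAB and SCAN kind, ranged from 16.9 to 22.2 CPM with exemestane and from 9.20 to 16.5 with anastrozole, and its log2 fold change was 0.59 ± 0.14 (SE) and 0.49 ± 0.13.

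Rims3 encodes a small RIM protein of the presynaptic active zone. It stood at 8.37, 8.36, 9.24, 8.81 and 12.2 CPM with exemestane and at 20.3, 15, 14.9, 14.3 and 14.5 CPM with anastrozole. The highest exemestane library was below the lowest anastrozole library. On the log2 scale the fold change was -0.74 ± 0.16 (SE) without the class and -0.69 ± 0.17 with it, with edgeR adjusted p-values of 0.0901 and 0.0827. Vehicle averaged 16 ± 4.83 CPM (SD, n = 5), near the anastrozole libraries, where exemestane stood at -0.77 ± 0.16 (SE, log2) from vehicle without the class and -0.69 ± 0.18 with it. Anastrozole stood at -0.023 ± 0.16 and 0.0031 ± 0.16 from vehicle.

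Sharpin, a component of the linear ubiquitin chain assembly complex, stood at 20.4, 17.6, 19.9, 21 and 20.6 CPM with exemestane and at 24.4, 27.2, 23.1, 25.7 and 26.4 CPM with anastrozole. Its groups did not overlap, with a log2 fold change of -0.35 ± 0.080 (SE) without the class and -0.29 ± 0.073 with it. Timm10, a chaperone of protein import into mitochondria, ranged from 8.80 to 10.6 CPM with exemestane and from 11.7 to 13.8 with anastrozole, with a log2 fold change of -0.43 ± 0.099 (SE) and -0.40 ± 0.10. Sqstm1, encoding the autophagy receptor p62, ranged from 268 to 300.0 CPM with exemestane and from 321 to 361 with anastrozole. Its log2 fold change was -0.27 ± 0.063 (SE) and -0.20 ± 0.048. The RNA-binding protein gene Caprin2 and the membrane protein gene Xk did not overlap in the other direction, with log2 fold changes of 0.51 ± 0.12 (SE) and 0.52 ± 0.12 without the class and 0.44 ± 0.12 and 0.40 ± 0.11 with it. Of the 194 genes without overlap, 146 had an unadjusted p under 0.05 with the class, as did 12.8% of all genes. Both measures use the same 10 libraries, so a small p is largely set by the selection and is not separate evidence.

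Dcx, encoding doublecortin, a microtubule protein of newborn and migrating neurons, stood at 63.2, 64.0, 66.6, 64.1 and 39.9 CPM with exemestane and at 38.0, 38.0, 44.4, 44.9 and 35.7 CPM with anastrozole. The 4 low-share exemestane libraries lay in a narrow band above all others, and replicate 5 fell among the anastrozole libraries. In the 2 models the log2 fold change was 0.56 ± 0.13 (SE) without the class and 0.38 ± 0.095 with it, with edgeR adjusted p-values of 0.0901 and 0.0827. Vehicle averaged 40.3 ± 3.49 CPM (SD, n = 5). Of the 7 neurogenesis genes tested, 2 stood higher and 1 lower at an unadjusted p under 0.05 without the class, and 1 (Dcx) and 0 with it. Among all genes 14% stood higher and 13.1% lower at that p without the class, and 7.22% and 5.61% with it. The median log2 fold change of the list was 0.30 without the class and 0.28 with it, beside -0.0094 and -0.00020 over all genes tested. Adam4, a gene of the ADAM metalloprotease family, stood at 5.99 to 10.3 CPM with exemestane and 4.64 to 6.36 with anastrozole, and overlapped, with a log2 fold change of 0.70 ± 0.16 (SE) and 0.64 ± 0.16. Ap5m1, a subunit of the endosomal adaptor complex AP-5, and Ccdc112 also overlapped, with log2 fold changes of 0.42 ± 0.097 (SE) and 0.65 ± 0.16 without the class and 0.31 ± 0.077 and 0.49 ± 0.12 with it.

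Among the genes with the next smallest p in the model with the class, Cpsf6, a factor of messenger RNA 3′ end processing, stood at 204, 215, 219, 238 and 150 CPM with exemestane and at 131, 124, 178, 189 and 130 CPM with anastrozole. Its log2 fold change moved from 0.45 ± 0.13 (SE) to 0.24 ± 0.049 with the class, with an edgeR adjusted p of 0.0530. Ube3a, the ubiquitin ligase whose maternal copy is lost in Angelman syndrome, moved from 0.53 ± 0.15 to 0.28 ± 0.060, with an edgeR adjusted p of 0.0554. The nucleoporin gene Ahctf1, the zinc finger gene Zfp292 and the GTPase-activating protein gene Arhgap5 each had an edgeR adjusted p of 0.0574 with the class. Their log2 fold changes were 0.31 ± 0.081, 0.42 ± 0.14 and 0.50 ± 0.17 (SE) without the class and 0.19 ± 0.040, 0.19 ± 0.042 and 0.24 ± 0.053 with it. Rock1, a kinase that acts on the actin cytoskeleton, and Hmgb1, a chromatin protein, had log2 fold changes of 0.58 ± 0.16 and 0.63 ± 0.19 (SE) without the class and 0.34 ± 0.078 and 0.37 ± 0.085 with it. On the lower side were Midn, encoding midnolin, at -0.42 ± 0.11 (SE) without the class and -0.25 ± 0.056 with it, and Pigt, a subunit of the transamidase that attaches glycolipid anchors, at -0.33 ± 0.079 and -0.22 ± 0.049. In these genes the high-share exemestane library lay nearer the anastrozole high-share libraries than the rest of its group did. Hmgb1 has processed copies in the genome, and how the authors' counting divided reads among them is not given in the sources used here.

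The drug target and the estrogen and progesterone receptors showed no difference that passed either test. Cyp19a1 was at the lower end of detection, with 4 to 18 estimated counts in each of the 10 libraries. It stood at 0.500, 1.67, 1, 1.91 and 1.6 CPM with exemestane and at 0.629, 0.657, 1.88, 1.74 and 1.12 CPM with anastrozole, and the groups overlapped. Between the drugs the log2 fold change was 0.13 with a 95% interval of -0.67 to 0.93 without the class and 0.11 with an interval of -0.71 to 0.93 with it. Both wide intervals include 0, and the sign changed when certain single libraries were left out.

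Esr1, encoding estrogen receptor alpha, averaged 2.73 ± 0.826 CPM (SD, n = 5) with exemestane and 2.38 ± 0.528 with anastrozole. Esr2, encoding estrogen receptor beta, averaged 1.05 ± 0.704 and 1.23 ± 0.386 CPM (SD, n = 5), and its lowest library was exemestane replicate 5 with 1 estimated count. Gper1, the membrane estrogen receptor gene, averaged 0.959 ± 0.205 and 0.902 ± 0.236 CPM (SD, n = 5). For these 3 receptors the 95% intervals of the log2 fold change without the class were -0.35 to 0.77, -1.03 to 0.62 and -0.72 to 0.91. With the class they were -0.37 to 0.79, -1.30 to 0.38 and -0.61 to 1.11. All of these intervals include 0, and differences within them in either direction were not resolved.

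Pgr, encoding the progesterone receptor, an estrogen-induced gene in many tissues, averaged 22.4 ± 2.30 CPM (SD, n = 5) with exemestane and 21.6 ± 2.86 with anastrozole. For this gene the log2 fold change was 0.056 with a 95% interval of -0.14 to 0.26 without the class and 0.063 with an interval of -0.14 to 0.27 with it.

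**Figure D4:**
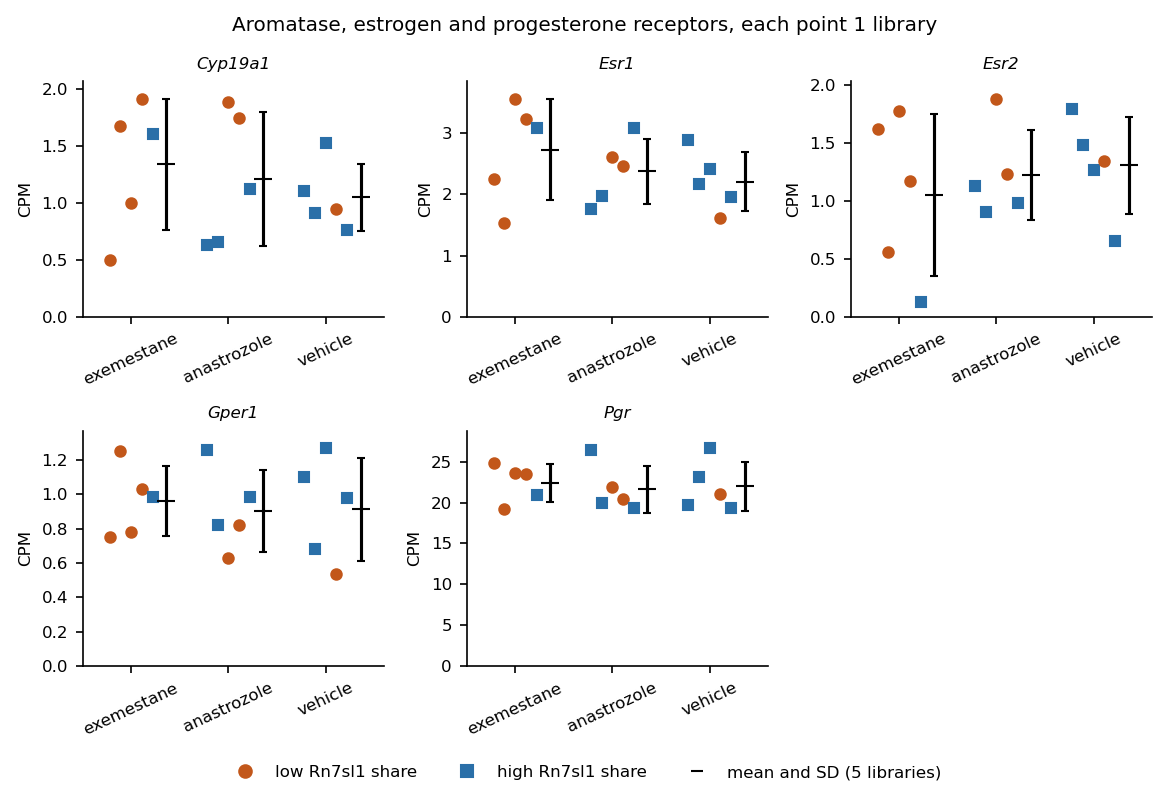
CPM of aromatase (Cyp19a1), the estrogen receptor genes Esr1, Esr2 and Gper1 and the progesterone receptor gene Pgr in the exemestane, anastrozole and vehicle groups. Each point is 1 library (circles low-share, squares high-share), bars are means with SD (n = 5), and the exemestane and anastrozole libraries overlap in all 5 panels.

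Of 23 genes of aromatase and neurosteroid metabolism, 2 stood higher and 4 lower under exemestane at an unadjusted p under 0.05 without the class, and 2 and 2 with it. Among all genes 14% stood higher and 13.1% lower at that p without the class, and 7.22% and 5.61% with it. The median log2 fold change of the list was 0.0057 and -0.012. Sult4a1, a brain sulfotransferase, had the smallest p of the list, with 172 to 215 CPM under exemestane, 201 to 245 under anastrozole and a log2 fold change of -0.25 ± 0.070 (SE) without the class and -0.15 ± 0.048 with it. Of 19 estrogen-responsive genes 1 stood higher and 1 lower without the class and 1 and 0 with it. Their median log2 fold change was -0.12 without the class and -0.086 with it. Negative folds made up 14 of the 19 without the class and 13 with it, unlike that of the next gene. The member with the smallest p was Nrip1, a corepressor of nuclear receptors, at 98.1 to 126 CPM and 81.6 to 111 CPM, with a log2 fold change of 0.28 ± 0.088 (SE) and 0.17 ± 0.061. Of 22 androgen- and glucocorticoid-responsive genes, 0 stood higher and 4 lower without the class and 0 and 1 with it, and their median log2 fold change was -0.18 and -0.12. Per1, a clock gene that glucocorticoids induce, ranged from 48.3 to 61.3 CPM with exemestane and from 53.0 to 82.1 with anastrozole, with a log2 fold change of -0.38 ± 0.13 (SE) and -0.22 ± 0.10. No member of these lists passed the edgeR test in either model.

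Of 19 circadian genes, 1 stood higher and 8 lower under exemestane at an unadjusted p under 0.05 without the class, where 13.1% of all genes stood lower. With the class these counts were 1 and 2, where 5.61% of all genes stood lower, and the median log2 fold change moved from -0.15 to -0.12. Ciart, a repressor of the CLOCK and BMAL1 activators, stood at 2.62, 4.04, 4.34, 3.52 and 4.06 CPM with exemestane and at 5.92, 4.44, 5.95, 6.36 and 6.19 CPM with anastrozole. The groups did not overlap, and the log2 fold change was -0.62 ± 0.18 (SE) without the class and -0.63 ± 0.19 with it, with edgeR adjusted p-values of 0.0901 and 0.120. Vehicle averaged 5.81 ± 0.999 CPM (SD, n = 5). The hour of tissue collection is not in the labels, so its part in these values was not tested. Of 22 immediate-early genes, a class induced by neuronal activity, 0 stood higher and 3 lower without the class and 0 in both directions with it. Egr4 of that list ranged from 5.99 to 12.9 CPM with exemestane and from 8.31 to 20.5 with anastrozole, with a log2 fold change of -0.73 ± 0.26 (SE) and -0.38 ± 0.22.

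Of the 13 protein genes encoded by mitochondrial DNA, which specify subunits of the respiratory chain and ATP synthase, all had a positive log2 fold change in both models. At an unadjusted p under 0.05, 10 stood higher and 0 lower without the class and 7 and 0 with it, against 14% and 7.22% higher among all genes. Their median log2 fold change was 0.33 without the class and 0.18 with it. Mt-nd4, a subunit of complex I, stood at 6500, 6870, 5810, 6800 and 4480 CPM with exemestane and at 4170, 3310, 5440, 5230 and 4020 CPM with anastrozole. The low-share exemestane libraries were above all anastrozole libraries and replicate 5 was not. Exemestane minus anastrozole, the log2 fold change was 0.46 ± 0.14 (SE) and 0.26 ± 0.084 with the class. Mt-atp8, a subunit of ATP synthase, differed by 0.44 ± 0.12 and 0.30 ± 0.11. Together the mitochondrial protein genes took 6.60%, 7.14%, 5.80%, 6.90% and 5.26% of counts with exemestane and 5.10%, 4.32%, 6.22%, 6.12% and 5.05% with anastrozole. These genes are cut from shared precursor transcripts and are not independent of each other. In the model with the class, their median stood 0.35 higher on the log2 scale in low-share than in high-share libraries.

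Nuclear genes of the same respiratory chain had negative folds in 56 of 78 members without the class and 58 with it. Of these 78, 5 stood higher and 33 lower under exemestane at an unadjusted p under 0.05 without the class, and 2 and 19 with it, against 13.1% and 5.61% lower among all genes. Their median log2 fold change was -0.15 and -0.076. Low-share minus high-share, their median difference was -0.17 on the log2 scale in the model with the class. Cox7a2, a subunit of cytochrome c oxidase, stood at 52.3, 55.5, 52.3, 60.3 and 61.3 CPM with exemestane and at 68.1, 68.2, 61.5, 64.7 and 68.6 CPM with anastrozole. The groups did not overlap, and the log2 fold change was -0.23 ± 0.061 (SE) without the class and -0.17 ± 0.049 with it. Cox6a1, of the same complex, stood at -0.41 ± 0.12 and -0.21 ± 0.052.

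Of 21 genes of glycolysis, 0 stood higher and 11 lower at an unadjusted p under 0.05 without the class and 0 and 8 with it, with a median log2 fold change of -0.15 and -0.089. Beside these and the counts of the lists that follow, all genes stood higher in 14% and lower in 13.1% without the class, and in 7.22% and 5.61% with it. Pkm, the pyruvate kinase gene of brain, ranged from 633 to 764 CPM with exemestane and from 675 to 863 with anastrozole, with a log2 fold change of -0.24 ± 0.066 (SE) and -0.15 ± 0.040. Of 77 ribosomal protein genes, 3 stood higher and 20 lower without the class and 1 and 9 with it. Low-share minus high-share, the median difference was -0.12 (log2) for this list and -0.14 for the glycolysis list. Rps15 ranged from 84.8 to 114 CPM with exemestane and from 93.8 to 142 with anastrozole, with a log2 fold change of -0.40 ± 0.12 (SE) and -0.20 ± 0.066. The ribosomal protein gene Rpl37, at 2.35 to 8.69 CPM over the 10 libraries, is low for an abundant protein's gene and has near-identical copies, so its log2 fold change of -1.03 ± 0.30 (SE) without the class and -0.53 ± 0.20 with it is uncertain. Of 21 genes of the citric acid cycle and pyruvate dehydrogenase, 6 stood higher and 3 lower without the class and 3 and 1 with it.

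**Figure D5:**
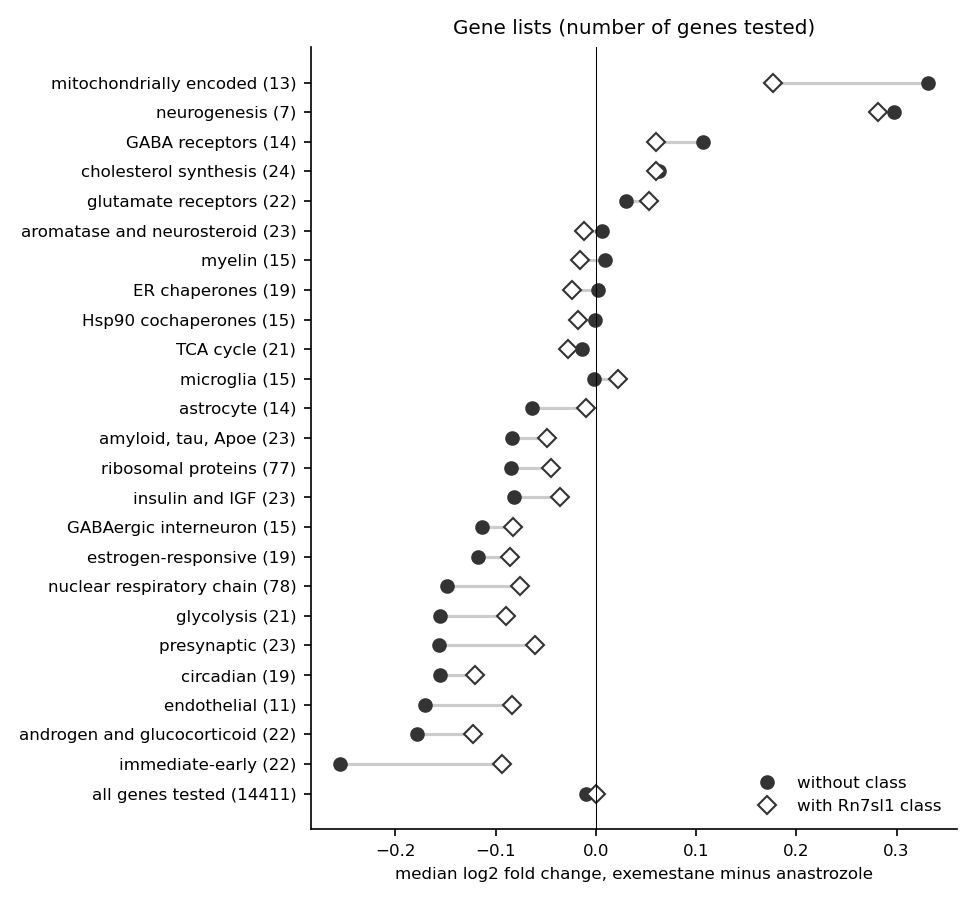
Median log2 fold change of exemestane minus anastrozole (x axis, unitless) for gene lists (y axis, number of genes tested in parentheses), without the class (filled circles) and with it (open diamonds). Mitochondrially encoded genes lie at 0.33 and 0.18, nuclear respiratory chain genes at -0.15 and -0.076 and all genes tested near 0.

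Genes of cholesterol synthesis were split, with 6 of 24 higher and 7 lower at an unadjusted p under 0.05 without the class and 6 and 3 with it. Nsdhl, an enzyme of the removal of methyl groups from sterols, stood at 28.5, 32.1, 29.5, 30.4 and 25.6 CPM with exemestane and at 20.5, 21.9, 25.3, 25.9 and 21.1 CPM with anastrozole. Only exemestane replicate 5 overlapped the anastrozole libraries, by a margin under 1 CPM. The fitted log2 fold change was 0.34 ± 0.096 (SE) and 0.27 ± 0.089 with the class. Hmgcs1, which makes the precursor of mevalonate, ranged from 269 to 331 CPM and from 219 to 283 CPM, with a log2 fold change of 0.27 ± 0.080 (SE) without the class and 0.18 ± 0.056 with it.

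Among 23 genes of amyloid, tau and apolipoprotein E biology, 4 stood higher and 6 lower without the class and 2 and 3 with it. Picalm, a clathrin assembly protein gene near a risk locus of Alzheimer's disease, ranged from 147 to 200 CPM with exemestane and from 124 to 177 with anastrozole, with a log2 fold change of 0.35 ± 0.097 (SE) and 0.21 ± 0.050. Of 23 insulin and insulin-like growth factor genes, 3 stood higher and 5 lower without the class and 0 and 4 with it, among them the adaptor gene Irs2 at -0.27 ± 0.075 and -0.16 ± 0.048. Of 14 neurotrophin and growth factor genes, 2 stood higher and 1 lower without the class and 1 and 1 with it. Ptn, the heparin-binding growth factor pleiotrophin, stood at 0.42 ± 0.12 (SE) without the class and 0.23 ± 0.055 with it, where the edgeR adjusted p was 0.0799.

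Receptor genes of synapses were counted at an unadjusted p under 0.05. At that p 14% of all genes stood higher and 13.1% lower without the class, and 7.22% and 5.61% with it. Of 22 glutamate receptor genes 7 stood higher and 5 lower without the class and 3 and 1 with it, and of 14 GABA receptor genes 5 and 1 without it and 1 and 0 with it. The 1 GABA receptor gene higher with the class was 7.14% of its list, near the share over all genes. Grik2, a kainate receptor subunit, ranged from 117 to 138 CPM with exemestane and from 88.4 to 131 with anastrozole, with a log2 fold change of 0.29 ± 0.085 (SE) and 0.20 ± 0.065. Gabra5, the GABA-A receptor subunit typical of hippocampus, ranged from 131 to 150 CPM and from 106 to 138 CPM, with a log2 fold change of 0.22 ± 0.081 (SE) and 0.14 ± 0.066. Of 23 presynaptic genes, the list that holds Rims3, 4 stood higher and 8 lower without the class and 1 and 1 with it. Galr1, a galanin receptor, averaged 4 ± 0.881 CPM (SD, n = 5) with exemestane and 2.41 ± 1.26 with anastrozole, with vehicle at 1.65 ± 0.793. For this gene the log2 fold change was 0.71 ± 0.33 (SE) and 0.76 ± 0.34 with the class, with edgeR adjusted p-values of 0.164 and 0.341. The groups overlapped, with anastrozole replicate 2 at 4.36 CPM and exemestane from 3.07 to 5.42. Of the 28 neuropeptide and receptor genes of its list, 1 stood higher and 3 lower without the class and 1 and 0 with it. Their median log2 fold change was -0.09 and -0.071. Cck, with the smallest p of that list without the class, stood at -0.39 ± 0.14 and -0.19 ± 0.11.

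Cell type markers were counted at an unadjusted p under 0.05. At that p 14% of all genes stood higher and 13.1% lower without the class, and 7.22% and 5.61% with it. In either direction these were 27.1% without the class and 12.8% with it. The pan-neuronal list had 2 of 12 genes higher and 3 lower without the class and 1 and 1 with it. For endothelial markers these counts were 0 and 3 of 11, and 0 and 1 with the class, and for oligodendrocyte precursor markers 0 and 3 of 12, and 0 and 1. Without the class these were 27.3% and 25% of the 2 lists, near the 27.1% of all genes that differed in either direction. The astrocyte list had 0 of 14 genes higher and 1 lower without the class, the microglia list 0 and 2 of 15, and the myelin list 1 and 0 of 15. With the class the counts were 0 and 0 for astrocyte, 0 and 1 for microglia and 1 and 0 for myelin markers. Enpp6, a choline phosphodiesterase that marks newly forming oligodendrocytes, stood at 2.62, 2.23, 2.12, 2.20 and 2.71 CPM with exemestane and at 6.80, 4.52, 3.44, 5.54 and 4.64 CPM with anastrozole. The groups did not overlap, and the exemestane libraries lay in a narrow range. On the log2 scale the fold change was -1.06 ± 0.33 (SE) without the class and -1.05 ± 0.35 with it, with edgeR adjusted p-values of 0.0901 and 0.180. Vehicle averaged 5.82 ± 1.5 CPM (SD, n = 5). Exemestane stood at -1.28 ± 0.33 (SE, log2) from vehicle without the class and -1.27 ± 0.36 with it, and anastrozole at -0.22 ± 0.31 in both models. The summed level of the oligodendrocyte precursor list that holds Enpp6 was 572 to 686 CPM with exemestane and 595 to 633 with anastrozole. Aspa, which breaks down N-acetylaspartate in oligodendrocytes, stood at 11.8 to 14.2 CPM with exemestane and 7.55 to 11.4 with anastrozole, without overlap, and its log2 fold change was 0.41 ± 0.15 (SE) and 0.29 ± 0.14.

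Lhx6, a transcription factor of interneurons from the medial ganglionic eminence, stood at 2.62, 2.51, 1.67, 1.47 and 3.32 CPM with exemestane and at 4.41, 6.00, 3.86, 3.90 and 4.22 CPM with anastrozole. These groups did not overlap either. In the 2 models the log2 fold change was -0.95 ± 0.25 (SE) and -0.75 ± 0.23 with the class, with edgeR adjusted p-values of 0.0901 and 0.155. Vehicle averaged 3.09 ± 1.01 CPM (SD, n = 5), with libraries from 2.29 to 4.79 CPM that reached into the ranges of both drugs. Exemestane stood at -0.41 ± 0.26 (SE, log2) from vehicle without the class and -0.095 ± 0.26 with it. Anastrozole stood at 0.53 ± 0.24 and 0.65 ± 0.22 from vehicle. The list of GABAergic interneuron markers had 1 of 15 genes higher and 3 lower without the class and 0 and 1 with it, and its summed level was 1366 to 1482 CPM with exemestane and 1357 to 1518 with anastrozole.

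The 13 choroid plexus markers all had negative folds, with a median log2 fold change of -0.27 without the class and -0.88 with it, and 0 reached an unadjusted p under 0.05 in either model. Their summed level ran from 76.8 to 3046 CPM with exemestane and from 92.3 to 3921 with anastrozole, and the groups overlapped, and 2 of the 13 were at 0 in at least 1 of the 10 libraries. The markers of pan-neuronal identity summed to 6576 to 7131 CPM and 6568 to 6958 CPM, present in every library. The dentate granule markers, 10 tested, had 1 gene higher and 1 lower without the class and 0 and 1 with it. Whether the share of any cell type moved with the genes above was not tested.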

How the data were processed

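RNA was sequenced from hippocampus as stranded, poly(A)-selected paired-end libraries, per the labels' protocols, from RNA with a quality score above 7. Salmon and DESeq2 were used by the authors, per the submitters' processing notes, in which no version or order is given. The aligner settings, genome build and annotation are not given in the sources used here. The authors deposited estimated counts per gene, which are whole numbers in the file, and a second table of normalised signal. The deposited signal was used only for the per-gene factors of 1 alternative. Every listed gene has counts in at least 8 libraries, so rarer genes are not seen.

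The estimated counts were tested with edgeR 4.0.16 in R 4.3.3 (TMM, filterByExpr, robust quasi-likelihood fit, Benjamini-Hochberg over 14411 genes, threshold 0.05) on all 35 libraries, without and with the Rn7sl1 class. DESeq2 1.42.0 was an alternative. CPM are counts divided by the TMM-scaled library size. Intervals are 95% intervals from the quasi-likelihood SE. The scripts were tested on simulated data. Estimated counts of replicate libraries differed beyond sampling noise, so no library was counted as a duplicate. Precision follows the totals of 6964580 to 12093294 counts per library and cannot include error from read assignment.

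Genes were named by a rule: the 15 symbol-bearing genes of smallest p in each model at 1 CPM or more, where fewer than 10 were called, plus the member of smallest p in each list and the genes of the target and receptors. An item of that rule is not reported here and was left out of its lists. Not every gene that the rule names is printed. Rn7sl1, Ttr and the entry without a symbol were added after their values were seen. The members, lists and class were chosen with earlier results of these data known. An alias for mitochondrial cytochrome b was added to match the deposited table. Promoters came from RefSeq (GRCr8).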

Additional observations from a re-analysis of the deposited data

Results flagged for a closer look

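Within groups of 5, 20 of 140 sets of values for the named genes held a library that stood apart from the other 4. Chance meets the criterion in about 1 in 20 sets of unselected values. Most named genes were picked for a small p in these same libraries, so that rate does not apply to them. Of the 20 sets, 16 had exemestane replicate 5 apart, the high-share library of its group. That library was lowest for Chm at 33.2 CPM (others 49.1 to 55.2), Ccdc88a at 115 (172 to 194), Dcx at 39.9 (63.2 to 66.6) and Ube3a at 116 (187 to 212). It was also lowest for Ahctf1 at 85.7, Zfp292 at 102, Arhgap5 at 201, Hmgb1 at 53.3 and Picalm at 147 CPM. It was highest for Chpf at 98.0 CPM (66.9 to 74.0), Rims3 at 12.2 (8.36 to 9.24) and Midn at 61.2 (42.6 to 47.1). It was highest too for Per1 at 61.3, Cox6a1 at 146, Rps15 at 114 and Pkm at 764 CPM. The sets share libraries, so these findings are not independent of each other.

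Anastrozole replicate 1 was highest for Rims3 at 20.3 CPM (14.3 to 15). Anastrozole replicate 2 was highest for Herpud1, a gene of endoplasmic reticulum-associated degradation, at 40.4 CPM (30.9 to 32.6), and for Lhx6 at 6.00 (3.86 to 4.41). It was lowest for Ciart at 4.44 CPM (5.92 to 6.36).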

How the results depend on the processing

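Without the class, the count of called genes was 0 and became 3 with RLE size factors, 844 with DESeq2, 1 on the 10 libraries alone and 13 on low-share libraries alone, and ran from 0 to 3454 with each library left out. With the class, the count was 4 and became 15 with RLE size factors, 160 with DESeq2, 40 on the 10 libraries alone, 7 with Ttr as a covariate and 940 with the Rn7sl1 share as a continuous covariate, and ran from 0 to 22 with each library left out. The cause was not tested. Other low-count filters and a TMM without non-coding and mitochondrial RNAs left the counts at 0 and 4. The authors' per-gene factors, an alternative chosen after seeing the data, gave 0 and 3.

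Of 70 genes tracked, 64 without the class and 68 with it kept their direction in every alternative run. Without the class, the Cyp19a1 log2 fold change reversed to -0.54 on low-share libraries, and ran from -0.046 to 0.35 with each library left out. Its highest value over all alternatives was 1.01. Esr1 reversed to -0.41 with the authors' factors. Esr2 ran from -0.50 to 0.081 and Gper1 from -0.012 to 0.24 with each library left out. Over all alternatives the lowest Esr2 value was -2.88 and the highest Gper1 value was 0.37. On high-share libraries alone Gper1 stood at -0.034, Pgr at -0.064 and Aldh1l1, an astrocyte gene, at 0.11. With the class, Cyp19a1 stood at -0.034 on the 10 libraries alone and ran from -0.046 to 0.38 with each library left out, and Esr1 reversed to -0.29 with the authors' factors. Depth limits the genes near 1 CPM. No paired analysis was possible because the labels give the 2 groups no shared replicate numbers.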

Other observations

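Entries with an Ensembl identifier and no symbol made up 953 of the 14411 tested. At an unadjusted p under 0.05, 190 stood higher and 51 lower under exemestane without the class, and 127 and 23 with it. These were 19.9% and 5.35% of the entries without the class, against 14% and 13.1% of all genes, and 13.3% and 2.41% with it, against 7.22% and 5.61%. Their median log2 fold change was 0.14 and 0.11, beside -0.0094 and -0.00020 over all genes tested. Of them 29 stood above and 3 below without overlap between the drugs, beside 0.687% above and 0.659% below among all genes tested. Their identity was not analysed here.

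Several further genes had the smallest p of their list. List counts below are at an unadjusted p under 0.05. Among all genes 14% stood higher and 13.1% lower without the class, and 7.22% and 5.61% with it. Serpina3n, an acute-phase protease inhibitor made by reactive astrocytes, stood at 6.49, 6.55, 8.13, 6.16 and 3.08 CPM with exemestane and at 2.39, 1.73, 5.01, 4 and 1.55 CPM with anastrozole. The log2 fold change was 1.04 ± 0.34 (SE) without the class and 0.63 ± 0.24 with it, past the edgeR threshold in neither, and Serpina3n also differed by 1.22 between low-share and high-share libraries. Of the 11 acute-phase and inflammation genes of its list, 1 stood higher and 0 lower in both models. Most folds of that list were negative, 6 without the class and 7 with it. Hapln1, a link protein of perineuronal nets, ranged from 46.5 to 74.4 CPM with exemestane and from 37.6 to 55.7 with anastrozole, with a log2 fold change of 0.48 ± 0.13 (SE) and 0.30 ± 0.077. Of the 23 extracellular matrix genes of its list, 2 stood higher and 2 lower without the class and 1 and 1 with it. Tmem119, a microglial membrane protein, stood at -0.45 ± 0.12 and -0.32 ± 0.11. The 15 microglial markers did not move with it. Their median log2 fold change was -0.0019 without the class and 0.022 with it. Of their folds, 7 were positive and 8 negative without the class, and 8 and 7 with it. Herpud1 ranged from 24.5 to 28 CPM with exemestane and from 30.9 to 40.4 with anastrozole without overlap, with a log2 fold change of -0.34 ± 0.098 (SE) and -0.30 ± 0.10. Of the 19 endoplasmic reticulum genes of its list, 4 stood higher and 3 lower without the class and 1 and 2 with it. Their median log2 fold change was 0.0017 and -0.024. Dnajb1, an Hsp40 cochaperone, stood at -0.28 ± 0.087 and -0.21 ± 0.081. Of the 15 Hsp90 cochaperone genes of its list, 4 stood higher and 2 lower without the class and 2 and 1 with it. Their median log2 fold change was -0.00053 and -0.018.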
